A study of Mus musculus with 6 samples.

Results

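Cells of the mouse hepatoma line Hepa 1–6, called mouse hepatocytes in the labels, expressed the whole Hippo, Yap and Tead set, and the levels lay close together with and without Shh. The set holds 10 genes, picked by symbol from the 18169 genes of the deposited table and by no measured value, though earlier results of these data were known. All 10 were among the 12286 genes abundant enough to be tested. It covers the coactivators *Yap1* and *Wwtr1* (the gene of Taz), the DNA-binding factors *Tead1*, *Tead2*, *Tead3* and *Tead4*, the kinases *Lats1* and *Lats2*, and the target genes *Ccn2* and *Ankrd1*. Cells of 1 line were treated with Shh or with vehicle, carried no engineered change named in the labels, and gave 3 libraries of poly(A) RNA per treatment. How much Shh was given to these cells, and for how long, is not named in the sources used here. The paper counts the replicates of these cells in mice and speaks in general of independent repeats, but no source used here says that the libraries were separate cultures, so p-values measure a spread between libraries that could be technical.

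In the Hippo pathway, the Mst kinases (genes *Stk3* and *Stk4*) activate the Lats kinases, which phosphorylate Yap and Taz and hold them in the cytoplasm. Unphosphorylated Yap and Taz enter the nucleus, bind Tead factors and switch on genes such as *Ccn2*, *Ccn1* and *Ankrd1*. In liver the pathway limits organ size, and active Yap drives hepatocytes towards a biliary, progenitor-like state and accompanies liver cancer. Much of this control acts on the proteins, by phosphorylation and location, which RNA levels do not show.

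No gene of the set passed the threshold of an adjusted p under 0.05 in edgeR's quasi-likelihood test. The count was 0 of 10 in edgeR, where 0% of all genes tested passed, and DESeq2 gave the same share of 0%. At an unadjusted two-sided p under 0.05 in edgeR, 3 of the 10 were higher with Shh (*Lats2*, *Tead1* and *Yap1*), where 4.83% of all genes tested were. A further 2 of the 10 were lower (*Ccn2* and *Ankrd1*), against 5.56% of all genes, and in either direction the share over all genes was 10.4%. With Shh replicate 2 left out, 0 of the 10 were higher and 1 was lower (*Ccn2*) at that p, against 2.53% and 3.67% of all genes in that fit. Which genes fell under that p also changed with the test and the filter. DESeq2 gave unadjusted p = 0.064 for *Yap1*, 0.057 for *Ankrd1* and 0.046 for *Lats1*. With the filter of 5 CPM in 3 libraries, edgeR gave unadjusted p = 0.051 for *Ccn2*, 0.053 for *Ankrd1* and 0.047 for *Lats1*. In CPM, every Shh library lay above every vehicle library for 3 of the 10 (*Yap1*, *Tead1* and *Lats2*), against 6.79% of all genes. Every Shh library lay below for 1 (*Tead4*), against 8.67% of all genes, and *Lats2* and *Tead4* overlapped in FPKM. With 3 libraries a group, the smallest p of an exact permutation test is 0.10.

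The libraries held 20253781 to 20291075 counts in the Shh group and 20278619 to 20335463 in the vehicle group. Shh libraries differed among themselves more than vehicle libraries did, by a chi-square per degree of freedom of 4.15 to 9.70 between pairs against 1.70 to 2.33. Shh replicate 2 stood farthest from the vehicle libraries, at 9.83 to 12.3, and Shh replicate 1 nearest, at 2.17 to 2.67. Longer transcripts had higher fold changes (Spearman's rho 0.54 across 11471 genes, which share these 6 libraries). Of the hepatocyte markers, *Alb*, *Afp*, *Trf* and *Hnf4a* were well expressed, while *Ttr* and *Serpina1a* averaged under 1 FPKM, and the summed level of the 11 markers was 1033 to 1080 FPKM in Shh libraries and 1061 to 1073 FPKM in vehicle libraries. The 5 cholangiocyte markers summed to 471 to 504 FPKM with Shh and 476 to 497 FPKM with vehicle, *Spp1* and *Krt7* leading. Among them, *Krt19* averaged only 4.66 FPKM with Shh and 5.58 FPKM with vehicle, and *Epcam* 4.28 and 4.37 FPKM. The other marker lists stayed low, at 4.03 to 11.2 FPKM with Shh and 5.27 to 7.92 FPKM with vehicle for 6 stellate cell genes, and 0.31 to 0.69 FPKM with Shh and 0.29 to 0.62 FPKM with vehicle for 4 endothelial genes. The macrophage and leukocyte genes summed to 10.4 to 14.1 FPKM with Shh and 12.6 FPKM in each vehicle library, *Cd68* leading. The others of that list, *Adgre1*, *Csf1r* and *Ptprc*, averaged under 1 FPKM in both groups. In such bulk libraries of 1 line, fewer cells expressing a gene and less RNA per cell cannot be told apart. The Hedgehog target genes *Gli1* and *Ptch1* had log2 fold changes of 0.036 (standard error 0.18) and 0.030 (standard error 0.065), neither of which passed (adjusted p = 0.955 and 0.891 from edgeR), and *Gli1* had 44.1 to 56 counts per Shh library and 43 to 50 per vehicle library.

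Levels per transcript length spanned a wide range within the set. FPKM, the count divided by transcript length and library total, allows genes to be compared with each other. *Ccn2*, which encodes a secreted matricellular protein, stood first, at 419 ± 8.26 FPKM with Shh and 441 ± 14.5 FPKM with vehicle (SD, n = 3 each), between rank 202 and rank 212 of all genes in each library. *Ankrd1*, the gene of a nuclear ankyrin repeat protein, followed at 96.6 ± 3.94 FPKM with Shh and 102 ± 2.62 FPKM with vehicle (SD, n = 3 each). *Lats1* and *Lats2* were the lowest, *Lats1* at 7.68 ± 1.21 FPKM with Shh and 6.80 ± 0.202 FPKM with vehicle, and *Lats2* at 6.08 ± 0.696 FPKM with Shh and 5.34 ± 0.151 FPKM with vehicle (SD, n = 3 each).

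In both groups the order by mean FPKM was *Ccn2*, *Ankrd1*, *Tead2*, *Wwtr1*, *Yap1*, *Tead4*, *Tead1*, *Tead3*, *Lats1* and *Lats2*. Neighbours in that order did not overlap between libraries of a group, apart from *Tead1* and *Tead3* in both groups and *Wwtr1* and *Yap1* with Shh.

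**Figure D1:**
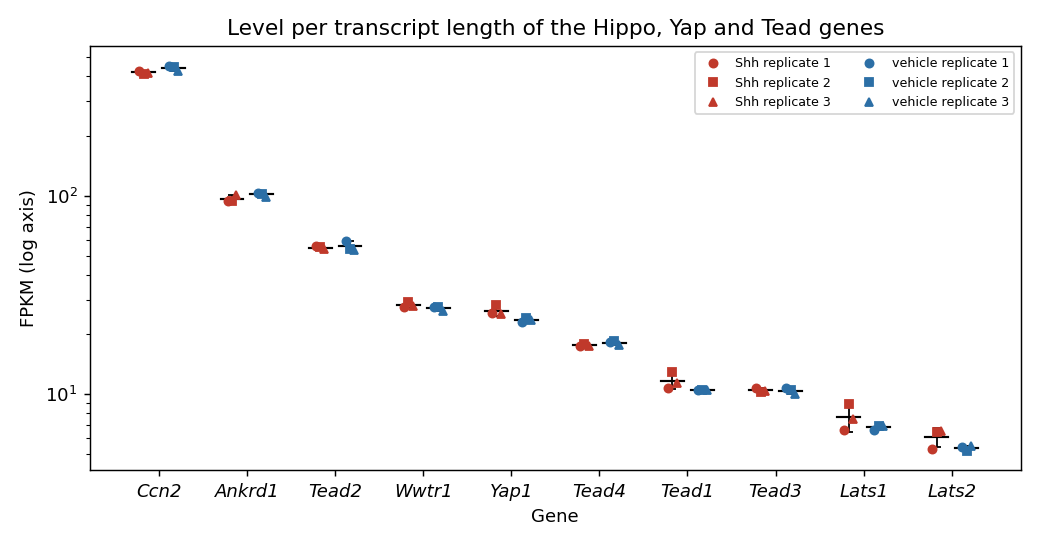
FPKM on a log axis for the 10 genes, ordered by the vehicle mean, with 1 marker per library (Shh in red on the left, vehicle in blue on the right) and the mean and SD of 3 libraries in black. *Ccn2* lies at 413 FPKM or more and *Lats1* and *Lats2* below 10 FPKM in all 6 libraries.

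Of the coactivator pair, *Yap1* was slightly higher on average with Shh and *Wwtr1* was at almost the same level. *Yap1* (NCBI gene ID 22601) had 93.7, 103 and 97.5 CPM (counts scaled to the TMM-normalized library total) in Shh replicates 1, 2 and 3, against 88.7, 93.6 and 90.8 CPM in vehicle replicates 1, 2 and 3. The groups did not overlap, but Shh replicate 1 and vehicle replicate 2 were almost equal. Its log2 fold change was 0.11 (standard error 0.047, 95% interval 0.0042 to 0.21, adjusted p = 0.477 from edgeR), and it was 0.071 without Shh replicate 2.

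*Wwtr1* (97064) had 129, 134 and 130 CPM with Shh and 131, 131 and 124 CPM with vehicle, so the groups overlapped. Its log2 fold change was 0.027 (standard error 0.042, 95% interval -0.063 to 0.12, adjusted p = 0.831 from edgeR) and turned to -0.025 with an offset for transcript length. In FPKM, *Wwtr1* stood at 1.07, 1.05 and 1.10 times *Yap1* in Shh replicates 1, 2 and 3, and at 1.19, 1.13 and 1.10 times in the vehicle replicates. The Taz and Yap transcripts were thus of similar abundance per length in every library. The length behind the *Yap1* FPKM moved between libraries, from 3647 to 3874 bases with Shh and from 3784 to 3815 bases with vehicle, so FPKM and CPM do not carry the same difference for this gene. In FPKM, *Yap1* had 25.6, 28.0 and 25.3 in the Shh replicates and 23.1, 24.3 and 23.8 in the vehicle replicates, again without overlap.

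**Figure D2:**
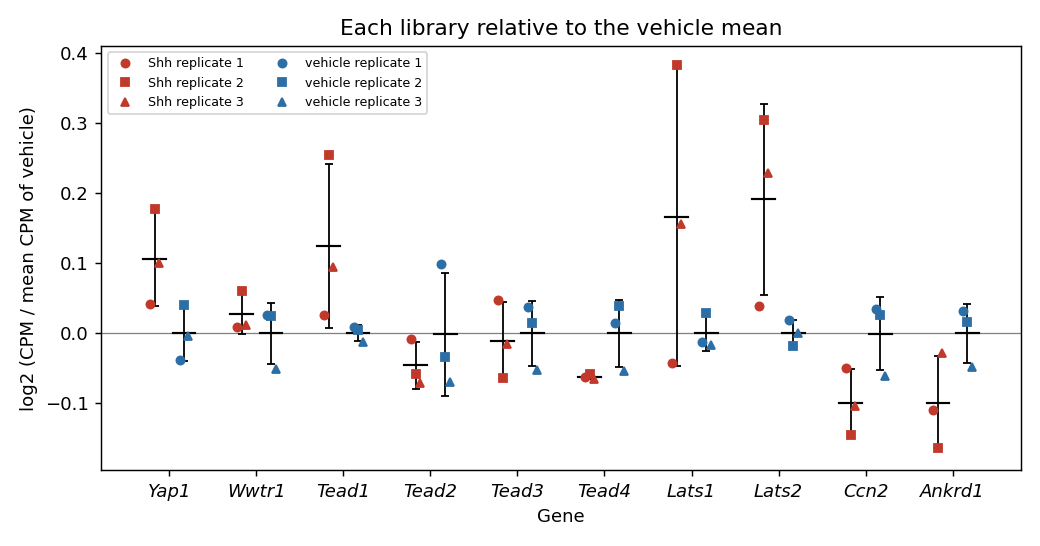
Level of each gene relative to its vehicle mean, as log2 of the CPM ratio (vertical axis), for each library (Shh in red on the left, vehicle in blue on the right), with the mean and SD of 3 libraries in black. Shh replicate 2, the red square, is the highest point for *Yap1*, *Tead1*, *Lats1* and *Lats2* and the lowest for *Ccn2* and *Ankrd1*, while Shh replicate 1 lies within 0.05 of the vehicle mean for *Yap1*, *Tead1*, *Lats1*, *Lats2* and *Ccn2*.

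Among the Tead factors, which give Yap and Taz their DNA binding, *Tead2* was the most abundant transcript. It made up 58.8%, 57.2% and 57.7% of the summed Tead FPKM in Shh replicates 1, 2 and 3, against 60.1%, 57.8% and 58.3% in the vehicle replicates. The summed Tead level was 93.0 to 96.4 FPKM with Shh and 91.3 to 99.0 FPKM with vehicle. *Tead4* contributed 18.5% to 18.9% of it with Shh and 18.5% to 19.8% with vehicle, *Tead1* 11.4% to 13.5% with Shh and 10.6% to 11.4% with vehicle, and *Tead3* 10.6% to 11.4% with Shh and 10.8% to 11.1% with vehicle. The order *Tead2* over *Tead4* held in all 6 libraries.

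*Tead1* (21676), a Tead gene with a small positive fold change, had 106, 124 and 111 CPM in Shh replicates 1, 2 and 3, and 105, 105 and 103 CPM in the vehicle replicates. The groups did not overlap, although Shh replicate 1 was close to the vehicle libraries. On the log2 scale the difference was 0.13 (standard error 0.055, 95% interval 0.0080 to 0.25, adjusted p = 0.473 from edgeR). Its transcript was also the longest of the set, at 9829 bases against a median of 2690 over the 11471 tested genes with a recovered length. With the offset for transcript length the value was 0.038, and without Shh replicate 2 it was 0.060.

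*Tead2* (21677) had 115, 112 and 111 CPM with Shh and 124, 113 and 111 CPM with vehicle. The groups overlapped, and only vehicle replicate 1 stood above the other libraries. For *Tead2* the log2 fold change was -0.046 (standard error 0.050, 95% interval -0.15 to 0.062, adjusted p = 0.754 from edgeR), and it was 0.0057 without vehicle replicate 1.

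*Tead4* (21679) had 52.4, 52.5 and 52.3 CPM with Shh and 55.2, 56.2 and 52.7 CPM with vehicle, and *Tead3* (21678) had 27.7, 25.7 and 26.5 CPM with Shh and 27.6, 27.1 and 25.9 CPM with vehicle. Shh libraries lay below the vehicle libraries for *Tead4* by a narrow gap in CPM, and overlapped with them for *Tead3*. In FPKM the *Tead4* groups overlapped, with Shh replicate 2 at 17.98 and vehicle replicate 3 at 17.61. The log2 fold change was -0.063 for *Tead4* (standard error 0.046, adjusted p = 0.628 from edgeR). For *Tead3* it was -0.010 (standard error 0.058, adjusted p = 0.960 from edgeR), and it lay above 0 without Shh replicate 2 or without vehicle replicate 1. The deposited counts of these 2 genes were not whole numbers, yet their sum was whole in each library within 0.011 (1618, 1623 and 1606 counts with Shh, 1659, 1672 and 1588 with vehicle). Reads were therefore divided between them in the authors' counting, and their split is less certain than their sum. The sums overlapped between the groups, with vehicle replicate 3 the lowest. Summed as 1 gene, *Tead3* and *Tead4* gave -0.045 on the log2 scale (standard error 0.044, adjusted p = 0.724 from edgeR). Counts of *Wwtr1*, *Tead1* and *Lats1* were not whole either, with no single partner gene found, while those of *Yap1*, *Tead2*, *Ccn2* and *Ankrd1* were whole.

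The Lats kinases, which inhibit Yap and Taz, averaged higher with Shh, and the size of that difference depended on single libraries. *Lats2* (50523), itself also a Yap target, had 26.3, 31.7 and 30.0 CPM in Shh replicates 1, 2 and 3, against 25.9, 25.3 and 25.6 CPM in the vehicle replicates. The Shh group was higher in each library, with replicate 1 close to vehicle and replicates 2 and 3 above it. Shh over vehicle gave 0.20 on the log2 scale (standard error 0.069, 95% interval 0.045 to 0.35, adjusted p = 0.469 from edgeR). In FPKM, where Shh replicate 1 was at 5.28 and the vehicle libraries at 5.17 to 5.45, the groups overlapped. The length behind the *Lats2* FPKM moved between libraries, from 4648 to 5005 bases with Shh and from 4674 to 4845 bases with vehicle. FPKM and CPM thus do not carry the same difference for *Lats2* either. *Lats2* shared reads with *Gm52140*, a gene model that overlaps it in RefSeq and holds 1.04 to 6.14 counts per Shh library and 0 to 5.43 per vehicle library. With both summed, the log2 fold change of *Lats2* was 0.20.

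*Lats1* (16798) had 46.7, 62.7 and 53.6 CPM in Shh replicates 1, 2 and 3, and 47.7, 49.1 and 47.5 CPM in the vehicle replicates. Shh replicate 1 was below all vehicle libraries and Shh replicate 2 was far above them, so the groups overlapped. For *Lats1* Shh over vehicle gave 0.18 on the log2 scale (standard error 0.084, 95% interval -0.0056 to 0.36, adjusted p = 0.485 from edgeR). It was 0.060 without Shh replicate 2 and 0.096 with the offset for transcript length. Without Shh replicate 1, *Lats1* (0.27, adjusted p = 0.0495 from edgeR) and *Lats2* (0.27, adjusted p = 0.0487 from edgeR) passed the threshold, as 0.888% of all genes did on the higher side in that fit. That fit drops the Shh library nearest to vehicle, in which *Lats1* and *Lats2* were lowest among the Shh libraries. The *Lats1* to *Lats2* ratio in FPKM was 1.24, 1.38 and 1.16 in the Shh replicates and 1.21, 1.34 and 1.27 in the vehicle replicates, with no separation of the groups. The length behind the *Lats1* FPKM also moved, from 7083 to 7170 bases with Shh and from 6842 to 7166 bases with vehicle. These ratios therefore carry differences in length as well as in counts.

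**Figure D3:**
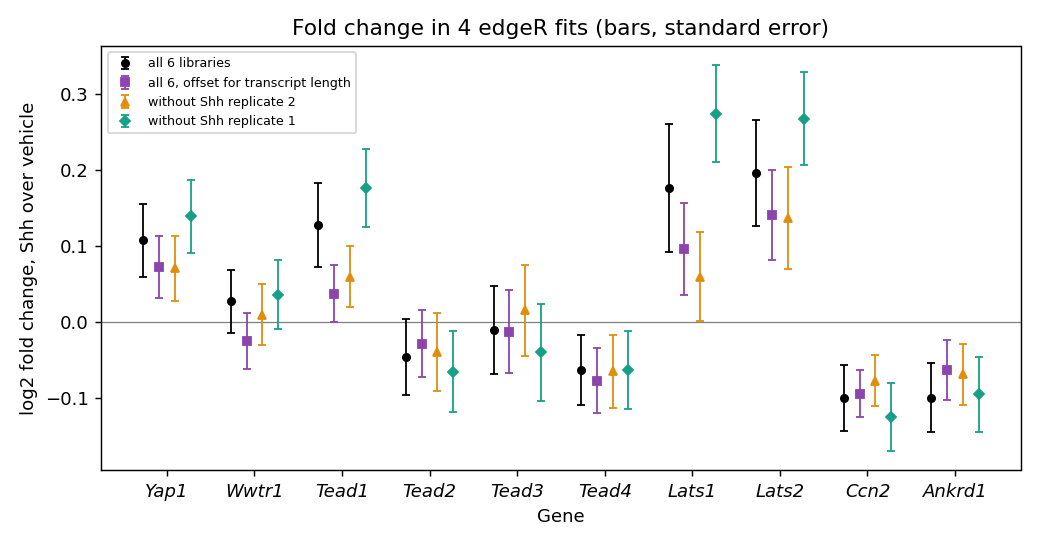
Log2 fold change of Shh over vehicle (vertical axis) for the 10 genes in 4 edgeR fits, with the standard error as bars. *Lats1* and *Lats2* are at 0.27 without Shh replicate 1 (green) and lower in the other fits, and *Tead1* is at 0.13 with all libraries (black) and 0.038 with the length offset (purple).

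*Ccn2* and *Ankrd1*, in the set as targets alone, had slightly lower means with Shh, and neither passed the threshold. The mean of *Lats2*, a kinase gene that is also a Yap target, was higher with Shh. *Ccn2* (14219) had 1013, 948 and 976 CPM in Shh replicates 1, 2 and 3, against 1074, 1068 and 1006 CPM in the vehicle replicates. The groups overlapped, since Shh replicate 1 was above vehicle replicate 3. Its 19681 to 20475 counts per Shh library and 20329 to 21526 per vehicle library are the deepest measurement of the set. For *Ccn2* the log2 fold change was -0.099 (standard error 0.043, 95% interval -0.19 to -0.0057, adjusted p = 0.473 from edgeR), and the value with the length offset was -0.094. In these libraries *Ccn2* was thus not higher with Shh in any fit run, with values from -0.13 to -0.077 over 14 alternatives (adjusted p = 0.128 to 0.847).

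*Ankrd1* (107765) had 163, 157 and 173 CPM with Shh and 180, 178 and 170 CPM with vehicle. The groups overlapped through Shh replicate 3. Its log2 fold change was -0.099 (standard error 0.045, 95% interval -0.20 to -0.0011, adjusted p = 0.478 from edgeR), and it was -0.063 with the length offset and -0.14 without Shh replicate 3. *Ccn1*, a close relative of *Ccn2* and another Yap target, had 179, 166 and 164 CPM with Shh and 179, 191 and 170 CPM with vehicle, and Shh over vehicle gave -0.084 on the log2 scale (standard error 0.051, adjusted p = 0.558 from edgeR). In FPKM, *Ccn2* stood at 4.75 to 5.00 times *Ccn1* with Shh and 4.70 to 5.04 times with vehicle.

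Tead factors bind the element GGAATG, read CATTCC on the other strand. It was searched on both strands in the RefSeq windows of GRCm38.p6, from 250 bases before to 50 bases after each transcription start, and 14.7% of all 32851 windows held it. Of the 10 genes 7 had a window, and *Ankrd1* held 2 matches, *Yap1* 1, *Lats2* 1 in 1 of its 2 windows, *Wwtr1* 1 in each of 2 overlapping windows and *Tead3* matches in 2 of its 3 overlapping windows. *Tead2* and *Lats1* held 0, and *Ccn2*, *Tead1* and *Tead4* had no window. The windows of *Ankrd1* and *Lats2*, with that of *Ccn1*, are shown as examples from Yap target genes that the libraries measured, with the element in capitals. For *Lats2* the window with a match is shown. The target gene *Amotl2* also held 1 match and is not shown. A match is a description of the sequence and not a bound site. *Ankrd1* lies at chr19:36119795-36120094, minus strand, with matches that begin 210 and 123 bases before the start. *Ccn1* lies at chr3:145649936-145650235, minus strand, with 1 match that begins 103 bases before the start. *Lats2* lies at chr14:57746074-57746373, minus strand, with 1 match that begins at base 5 of the transcript.
Ankrd1: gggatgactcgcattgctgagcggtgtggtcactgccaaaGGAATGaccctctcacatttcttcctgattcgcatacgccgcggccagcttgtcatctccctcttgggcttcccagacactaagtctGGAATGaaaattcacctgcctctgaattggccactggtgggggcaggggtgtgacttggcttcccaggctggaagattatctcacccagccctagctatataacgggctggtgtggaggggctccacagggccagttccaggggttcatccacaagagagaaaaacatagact
Ccn1: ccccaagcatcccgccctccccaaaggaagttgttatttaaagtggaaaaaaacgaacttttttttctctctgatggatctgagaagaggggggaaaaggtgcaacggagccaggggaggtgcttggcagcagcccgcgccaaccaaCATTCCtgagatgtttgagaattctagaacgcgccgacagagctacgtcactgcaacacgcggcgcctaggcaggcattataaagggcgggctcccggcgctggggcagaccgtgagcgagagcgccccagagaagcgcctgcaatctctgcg
Lats2: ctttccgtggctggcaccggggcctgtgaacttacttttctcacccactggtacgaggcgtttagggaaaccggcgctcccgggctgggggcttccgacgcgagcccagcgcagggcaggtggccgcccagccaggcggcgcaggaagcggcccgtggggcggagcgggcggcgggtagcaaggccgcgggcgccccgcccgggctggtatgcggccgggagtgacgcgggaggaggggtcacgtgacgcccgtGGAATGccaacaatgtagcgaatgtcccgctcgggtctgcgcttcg

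**Figure D4:**
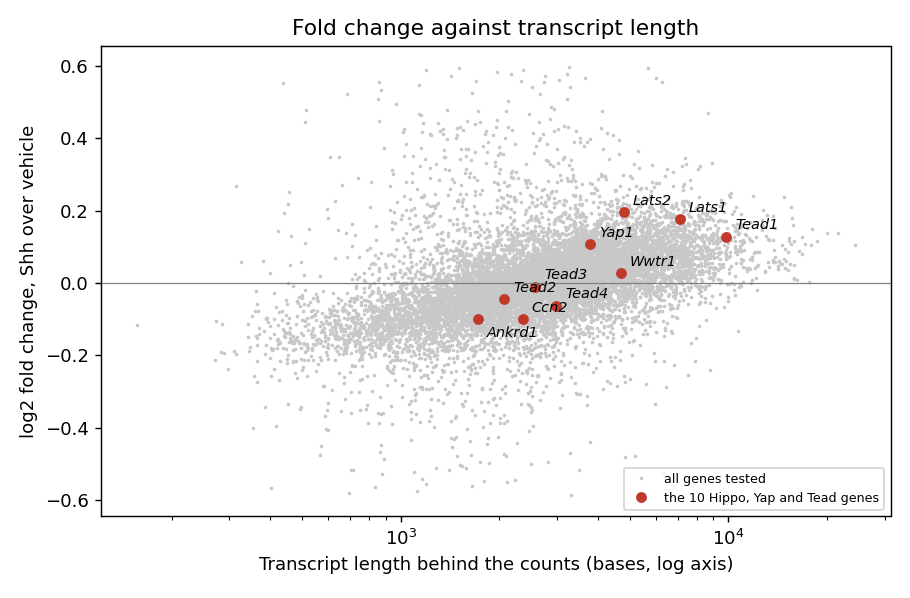
Log2 fold change of Shh over vehicle (vertical axis) against the transcript length behind the counts in bases (horizontal axis, log scale), with 1 grey point per tested gene that has a recovered length and the 10 genes in red. The 5 genes above 0, *Lats1*, *Lats2*, *Tead1*, *Yap1* and *Wwtr1*, are the 5 longest of the set, and 88 genes lie outside the vertical axis.

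Within the set, as over those 11471 genes, fold change went with transcript length. The 5 genes with a log2 fold change above 0 had transcripts of 3792 bases (*Yap1*), 4692 (*Wwtr1*), 4789 (*Lats2*), 7124 (*Lats1*) and 9829 (*Tead1*). The 5 below 0 had 1716 bases (*Ankrd1*), 2069 (*Tead2*), 2354 (*Ccn2*), 2568 (*Tead3*) and 2985 (*Tead4*). After the offset for length, at an unadjusted p under 0.05 in edgeR, *Lats2* alone was higher (0.14, standard error 0.059), against 2.6% of all genes in that fit, and *Ccn2* alone was lower (-0.094, standard error 0.031), against 3.48%, with adjusted p = 0.810 for both from edgeR. The part of RNA quality in this trend was not tested.

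Hippo kinases and regulators other than Lats, including its relatives *Stk38* and *Stk38l*, were expressed and lay slightly above 0 as a group. Of 18 such genes 15 were tested, *Wwc2*, *Fat4* and *Dchs1* being too low, and all 15 had a log2 fold change above 0, with a median of 0.068. Over all genes tested, 51.2% lay above 0 and the median was 0.0028. This list, too, was chosen with earlier results of these data known. Of the 15, 0 passed the threshold in edgeR and 0 in DESeq2, while an unadjusted p under 0.05 in edgeR marked 3 as higher, against 4.83% of all genes. These were the Tao kinase gene *Taok1*, the Ferm domain gene *Frmd6* and the Mst1 gene *Stk4*. The groups did not overlap for 6 of the 15, each higher with Shh, as for 6.79% of all genes tested.

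*Taok1*, whose kinase phosphorylates Mst and Lats, had 102, 115 and 117 CPM with Shh and 100, 94.5 and 100 CPM with vehicle. The groups did not overlap. Its log2 fold change was 0.18 (standard error 0.055, adjusted p = 0.469 from edgeR), 0.094 with the length offset, and 0.24 without Shh replicate 1. In that last fit it was the only gene of this list to pass (adjusted p = 0.0451 from edgeR), as 0.888% of all genes did on the higher side. That fit drops the Shh library nearest to vehicle, in which *Taok1* was lowest among the Shh libraries. *Frmd6* was at 0.11 and *Stk4* at 0.11, and with the length offset they were at 0.060 and 0.046. The kinase gene *Map4k4* was at 0.077, but the length offset gave 0.011 and leaving out Shh replicate 2 gave 0.050. *Sav1*, the Mst scaffold gene, was at 0.0069, and *Nf2*, the gene of Merlin, at 0.052. These transcripts were long too, with a median of 4355 bases, and the median of the list was 0.021 with the length offset and 0.043 without Shh replicate 2.

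Cofactors of Tead and binders of Yap lay on both sides of 0. Of 22 genes 18 were tested, 9 above and 9 below, with a median of 0.011, and 0 passed in edgeR and in DESeq2. The median was -0.012 without Shh replicate 2, -0.0069 with the length offset and 0.057 without Shh replicate 1. An unadjusted p under 0.05 in edgeR marked 3 of the 18 as higher (*Strn3*, *Yes1* and *Tjp1*) and 0 as lower, against 4.83% and 5.56% of all genes. *Strn3*, a striatin gene of the phosphatase complex that opposes Mst kinases, had 55.9, 58.8 and 61.8 CPM with Shh and 51.7, 51.9 and 54.5 CPM with vehicle, without overlap. Its log2 fold change was 0.16 (standard error 0.051, adjusted p = 0.469 from edgeR) and 0.12 with the length offset. *Yes1*, the Src family kinase gene after which Yap is named, was at 0.22 (standard error 0.088, adjusted p = 0.469 from edgeR). Its groups overlapped, with Shh replicate 1 at 15.2 CPM and vehicle replicate 1 at 15.7 CPM. *Vgll4*, whose protein competes with Yap for Tead, was at 0.091 (adjusted p = 0.485 from edgeR). The tight junction gene *Tjp1* was at 0.14, but the length offset gave 0.059 and leaving out Shh replicate 2 gave 0.061. Of the other vestigial-like genes, *Vgll2* and *Vgll3* were too low to be tested.

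The wider list of Yap and Tead targets, known mostly from human cells, also lay on both sides of 0. Of 22 genes 19 were tested, 9 above and 10 below, with a median of -0.0011, and 0 passed in edgeR and in DESeq2. The median was -0.010 without Shh replicate 2, 0.0041 with the length offset and 0.0025 without Shh replicate 1. At an unadjusted p under 0.05 in edgeR 1 was higher, the Arf GTPase-activating protein gene *Asap1* (0.11, standard error 0.051), against 4.83% of all genes, and 0 were lower, against 5.56%. For *Asap1* the length offset gave 0.043 and leaving out Shh replicate 2 gave 0.051. *Igfbp3*, a binder of insulin-like growth factors, was the most abundant of them, at 496 FPKM with Shh and 506 FPKM with vehicle, and its log2 fold change was -0.055. *Axl*, a receptor kinase gene, was at -0.0035, *Amotl2* at 0.055 and *Birc5*, the gene of survivin, at -0.049. *Myof* was at 0.097, but the length offset gave 0.019 and leaving out Shh replicate 2 gave 0.039. *Tgfb2* had a fitted value of 0.82 (standard error 0.38, adjusted p = 0.479 from edgeR) that rests on 11.1 to 14.0 counts per Shh library and 5 to 9 per vehicle library.

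**Figure D5:**
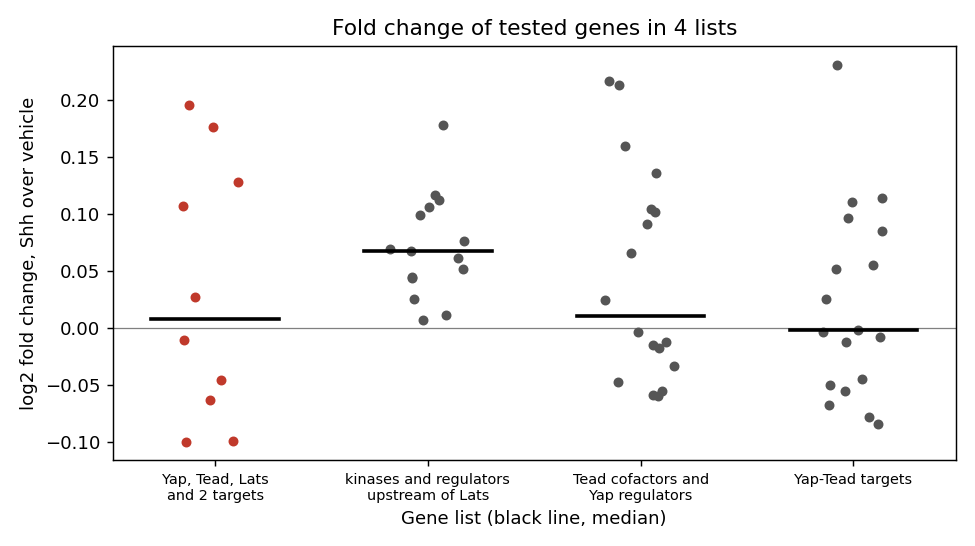
Log2 fold change of Shh over vehicle (vertical axis) for the tested genes of 4 lists, with 1 point per gene and the median as a black line. All 15 Hippo kinases and regulators other than Lats, labelled upstream of Lats, lie above 0. The other lists lie on both sides, and *Tgfb2* at 0.82 is outside the axis.

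Library profiles like those of *Yap1* and *Ccn2* were sought among 9598 other genes of at least 5 CPM, by the root mean square difference of log2 CPM relative to the vehicle mean over the 6 libraries. The nearest to *Yap1* were *Gspt1* (0.012), *Trim59* (0.018) and *Serpinb9b* (0.020). The nearest to *Ccn2* were *Mlf2* (0.0060), *Mapk3* (0.014) and *Cxxc1* (0.015). With only 6 values per gene and so many candidates, some profiles will lie close, and shared regulation was not tested.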

How the data were processed

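Single-end RNA libraries, 3 of Shh-treated and 3 of vehicle-treated Hepa 1–6 cells, were compared; the table names their columns Shh and control. The design text of the series mentions exosomes of liver, whereas the sample labels give Hepa 1–6 cells, and these were taken as the source. The authors deposited estimated counts, in which 36.4% of the values above 0 are not whole, and FPKM. The submitters' processing notes list Bowtie2. For the counter, the build and the annotation, the entry is not given in the sources used here. A further 6 per-sample columns (TPM) were not used.

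Counts were rounded and fitted over all genes in R 4.3.3 with edgeR 4.0.16 by the quasi-likelihood test, with TMM factors, group as the only term, filterByExpr at its minima (10 for the count, 15 for the total), and Benjamini-Hochberg adjustment at 0.05. FPKM served for levels between genes and, from 0.5 FPKM, to recover transcript length. Alternative fits used DESeq2 1.42.0, factors from the upper quartile, no expression filter or a stricter one (5 CPM in 3 libraries), a block for the replicate number, a length offset (a spline of 5 degrees of freedom for each library), the block with that offset, and 5 of the 6 libraries in turn. Summing the genes that share reads was added after seeing the data. The alternatives for files holding only FPKM or TPM were not needed.

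Named genes were the 10 members, the 4 tested genes with the smallest p of each further list, *Gli1*, *Ptch1* and *Hhip* (1 to 2 counts per Shh library and 0 to 3 per vehicle library, not tested), and the 3 nearest profiles. Other list genes were named for their role or level. Members and lists were chosen with earlier results of these data known. Scripts were tested on simulated data. Library totals were 20253781 to 20335463 counts.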

Additional observations from a re-analysis of the deposited data

How the results depend on the processing

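The 0 members called became 5 at an unadjusted p under 0.05 and 0 to 2 on leaving out a library, the 2 being *Lats1* and *Lats2* without Shh replicate 1. Over all genes the 0 called became 1277 at the unadjusted p, 1 with the expression filter dropped, 1 with the length offset, 5 with that offset and the replicate block together, and 0 to 195 on leaving out a library. The 195 came without Shh replicate 1, while 3 genes were called when Shh replicate 2, 1 when Shh replicate 3 and 2 when vehicle replicate 3 was left out. In the list of Hippo kinases and regulators other than Lats, 0 called became 0 to 1 on leaving out a library, *Taok1* without Shh replicate 1. Summing the genes that share reads was chosen after seeing the data and changed no call. *Wwtr1* reversed to -0.0250 with the length offset and -0.0247 with the block as well. On leaving out a library *Tead2* ranged from -0.0777 to 0.0057 and *Tead3* from -0.0397 to 0.0153, the sign turning without vehicle replicate 1 for both and without Shh replicate 2 for *Tead3*. Libraries with the same replicate number did not deviate together (r = -0.040 for number 1, -0.054 for number 2 and 0.098 for number 3), and several correlated better with another number. The fit with the replicate block called 0 genes and 0 members, as without it. The other member fold changes kept their sign under every alternative run.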
